A study of Homo sapiens with 2 samples.

Results

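The 4 human HOX gene clusters were examined as sites of E2F1 binding in LNCaP-abl prostate cancer cells. A peak of the E2F1 ChIP-seq list counted as a member when its midpoint lay in 1 of 4 intervals of hg19, namely HOXA on chromosome 7 from 27130000 to 27250000, HOXB on chromosome 17 from 46600000 to 46810000, HOXC on chromosome 12 from 54330000 to 54450000 and HOXD on chromosome 2 from 176950000 to 177060000. There were 43 such peaks among the 28734 of the list, with 11 in HOXA, 12 in HOXB, 16 in HOXC and 4 in HOXD. The 500 kb on each side of every interval held 82 further peaks and served for comparison.

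The peaks come from 1 chromatin immunoprecipitation, in which E2F1 was captured with a mixture of antibodies. LNCaP-abl grows without androgen and was derived from the LNCaP prostate cancer line. The cells were at passages 61 to 64, kept in medium with 10% charcoal-stripped serum, and deprived of androgen for 3 days before harvest. An input of the same cells is the other of the 2 samples, and no signal of it is analysed here. Read depth is unknown, since the list gives positions and a score per peak but no read counts. No value has a replicate, so nothing below carries a test between groups. Intervals around counts and densities are exact 95% intervals that cover counting error only and treat peaks as independent, which neighbouring peaks are not.

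HOX genes encode homeodomain transcription factors that set position along the body axis. They lie in clusters, broadly in numerical order, and low-numbered genes act towards the head and high-numbered genes towards the tail. Silent HOX genes are classic targets of Polycomb repression. HOXB13, set apart from the rest of its cluster, is expressed in prostate and works with the androgen receptor. E2F1 is a factor of the cell cycle that binds GC-rich promoters. In the RefSeq gene order, HOXA13 and HOXB13 lie at the high-coordinate end of their clusters, and HOXC13 and HOXD13 at the low-coordinate end. No annotation of hg19 was used here except the start of HOXB13, which came with the definition of the intervals. Its direction of transcription is general knowledge. Which gene, exon or intron a peak falls in is not given. Apart from HOXB13, positions are related to genes only by the end of the cluster they are near.

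The sequence at the peaks themselves was not read, for want of a genome of their build. Promoter sequence of HOX genes was available for 20 of 39 genes, as 26 distinct stretches of 300 bases from RefSeq (GRCh38.p14), each reaching from 250 bases before a gene's start to 50 after it. These were 9 HOXA, 1 HOXB, 2 HOXC and 8 HOXD genes. HOXA gave 16 of the 26 stretches, with more than 1 start for some genes, HOXD gave 8, and HOXB and HOXC gave 1 each. The exact intervals treat stretches as independent. E2F sites were sought on both strands with 4 spellings of 8 letters, TTTGGCGC, TTTCCCGC, TTTGCCGC and TTTCGCGC, which differ from each other in their middle letters. A stretch counted once however many matches it held. Of the 26 stretches 1 held a match (3.85%, exact interval 0.0973 to 19.6%), against 3.30% of the 34796 distinct promoters in the table. The match lay before one of several starts of HOXA3, beginning at position -126 from that start, and is shown with the matching letters in capitals because it was the single match found.
HOXA3: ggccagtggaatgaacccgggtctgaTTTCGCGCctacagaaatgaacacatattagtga
The 5-letter cores GGCGC and CCCGC, contained in the first and the second of these spellings, were present on either strand in 21 of the 26 HOX stretches (80.8%, exact interval 60.6 to 93.4%) and in 63.6% of all promoters, which lies within that interval. The median GC content was 58.0% in HOX stretches and 58.7% in all promoters, and the median ratio of observed to expected CpG was 0.85 and 0.58. By cluster that ratio was 0.81 in HOXA and 0.87 in HOXD, and 0.44 and 0.75 in the single stretches of HOXB and HOXC. A match describes letters only, and whether E2F1 sits on these stretches in the cells was not tested.

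E2F1 peaks were dense in the clusters. The 4 intervals together held 7.68 peaks per 100 kb (5.56 to 10.3), against 2.05 (1.63 to 2.54) on their sides and 0.958 over all nuclear chromosomes. The density was 3.75 times that of the sides (exact interval 2.53 to 5.48) and 8.02 times that of the nuclear genome outside the intervals (5.80 to 10.8). Called peaks covered 3.84% of the bases of the intervals and 0.989% of the sides. The intervals were drawn around gene clusters and the sides were not, and gene content was not measured in either.

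The excess over the sides was steepest at HOXA, where 11 peaks in 120 kb made 9.17 peaks per 100 kb (4.58 to 16.4). The lower 500 kb held 3 peaks and the upper 500 kb held 9, a density of 1.20 per 100 kb over both. The ratio was 7.64 (3.05 to 18.9), and 12.5 (3.97 to 42.7) in the upper 50% of the list by score. HOXC was the densest cluster in absolute terms, with 16 peaks in 120 kb or 13.3 per 100 kb (7.62 to 21.7). Its sides were also well filled, with 19 and 18 peaks, and the ratio was 3.60 (1.87 to 6.64). HOXB had 12 peaks in 210 kb, which is 5.71 per 100 kb (2.95 to 9.98), and 2.48 times the density of its sides (1.13 to 5.20), which held 11 and 12 peaks. With 250 kb on each side the HOXB ratio was 2.20 and its interval included 1 (0.917 to 5.22). It also included 1 against the upper side alone (0.978 to 5.79) and in the upper 50% of the list by score (2.04, 0.643 to 5.65). It excluded 1 with 1 Mb on each side (2.20, 1.07 to 4.17) and against the lower side alone (2.60, 1.05 to 6.50). HOXD was the sparsest, with 4 peaks in 110 kb or 3.64 per 100 kb (0.991 to 9.31). Its sides held 5 peaks each, and the ratio of 3.64 had an interval that included 1 (0.832 to 12.6). With 1 Mb on each side the HOXD ratio was 5.19 (1.25 to 16.5), and in the upper 50% by score it was 9.09 from 2 peaks (0.659 to 125).

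**Figure D1:**
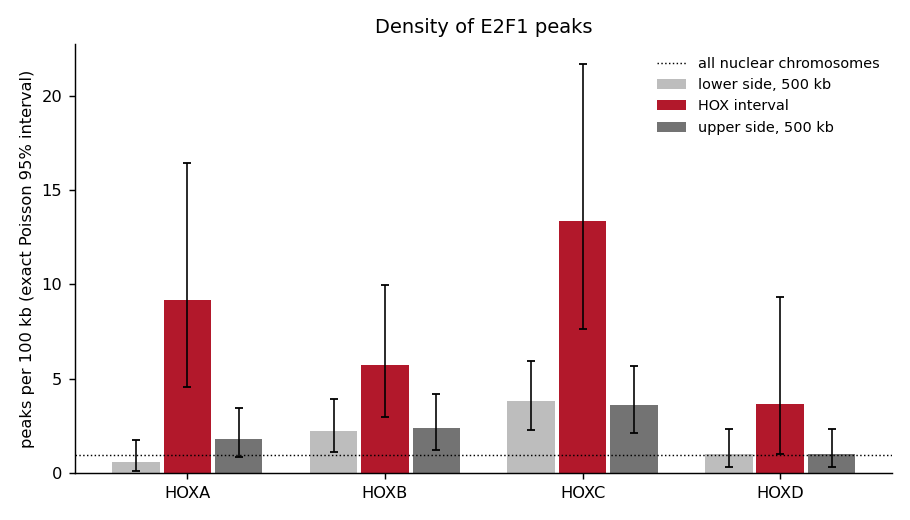
Peaks per 100 kb (vertical axis, linear from 0) in each HOX interval and in the 500 kb on its lower and upper sides, with exact Poisson 95% intervals as error bars and the value over all nuclear chromosomes as a dotted line. The HOX bar is the highest of its trio in all 4 clusters, from 3.64 in HOXD to 13.3 in HOXC, and the intervals of HOXB and HOXD overlap those of both of their sides.

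Against windows of the same length tiled over the nuclear chromosomes, 0.0194% of 25755 windows of 120 kb held at least the 16 peaks of HOXC, and 0.229% held at least the 11 of HOXA. At least the 12 peaks of HOXB were found in 1.06% of 14709 windows of 210 kb. At least the 4 peaks of HOXD were found in 7.41% of 28093 windows of 110 kb. In numbers, 5 windows of 120 kb reached the count of HOXC and 2081 windows of 110 kb that of HOXD. Among the 6 pairs of clusters, the density of HOXC was 3.67 times that of HOXD (1.18 to 15.1), and HOXB had 0.43 times the density of HOXC (0.185 to 0.966). The intervals of the other 4 pairs included 1, and none was widened for the number of pairs.

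HOX peaks were weak, middling and strong by score. The score is the authors' own value for each peak, on a scale no source used here gives, and it serves only to rank peaks within the list. Over the 43 peaks it ran from 4.32 to 190 with a median of 30.1, against a median of 17.6 on the sides and 23.5 over the list. Without HOXA the median of the remaining 32 peaks was 21.1, below that of the list. Leaving out HOXB instead raised the median above that of all 43, and leaving out HOXC or HOXD left it at 30.1. Of the 43, 24 were in the upper 50% of the list by score (55.8%, 39.9 to 70.9%, where the list has 50%). The upper 25% held 9 of them (20.9%, where the list has 25%), and the upper 10% held 4 (9.30%, where the list has 10%). These shares are near the background, so no surplus of high scores was seen in the clusters.

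The clusters differed in score among themselves. The median was 48.8 in HOXA, 24.6 in HOXB, 19.5 in HOXC and 18.1 in HOXD, and it was above the median of the sides in HOXA (22.3), HOXC (15.9) and HOXD (11.5). In HOXB it was below that of the sides, which was 40.3. In HOXA 9 of 11 peaks were in the upper 50% of the list (81.8%, 48.2 to 97.7%). In HOXB 6 of 12 were, in HOXC 7 of 16 and in HOXD 2 of 4. Ranges overlapped between all clusters and with their sides, and the exact intervals of the medians overlapped as well, from 19.3 to 105 in HOXA and from 11.1 to 43.9 in HOXB. At HOXD, with 4 peaks, the range stood in for that interval.

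**Figure D2:**
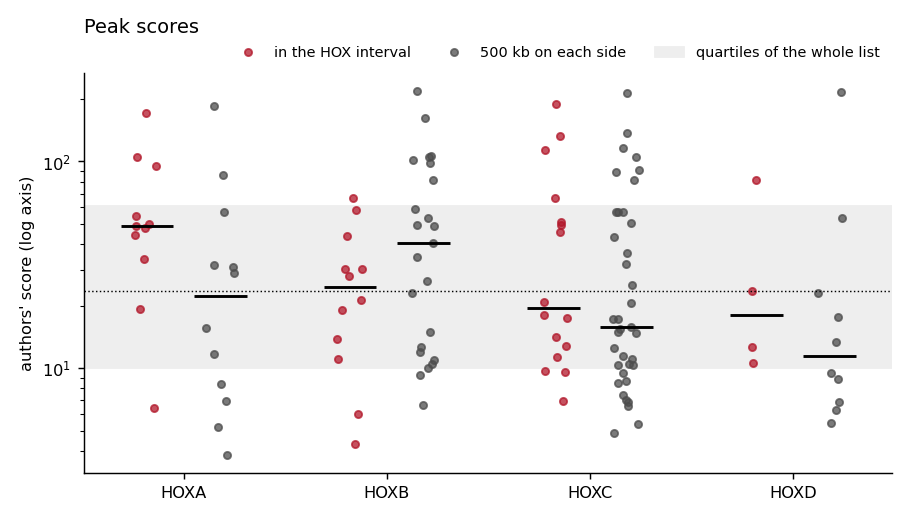
Score of each peak (vertical log axis) in the HOX intervals (red) and in the 500 kb on each side (grey), by cluster, with medians as black bars, the quartiles of the whole list as a grey band and its median of 23.5 as a dotted line. HOXA has 9 of 11 points above the dotted line, and HOXB is the cluster in which the sides have the higher median, 40.3 against 24.6.

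Most HOXA peaks lay from the middle of the interval onwards. Of its 11 peaks 3 were in the lower 60 kb and 8 in the upper 60 kb, on the side of HOXA13. Of these 8, the first lay 60.5 kb from the lower edge, the seventh 93.9 kb and the last 109.8 kb. The strongest, from 27205300 to 27206012, scored 172 and ranked 907 in the list. It was followed by a broad peak from 27212237 to 27213437 that was 1201 bp wide and scored 105. The widest of all 43 peaks, 1251 bp from 27169651 to 27170901, scored 94.9 and was the strongest of the lower part. A weaker peak of that part, from 27150238 to 27150538, scored 19.3.

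In the upper part 4 peaks had similar scores. They started at 27190221 (score 49.7), 27195428 (54.6), 27200453 (48.0) and 27223477 (48.8). The peak nearest the HOXA13 end, from 27239558 to 27240115, scored 33.9, and a 200 bp peak from 27219416 scored 6.42. Neighbouring HOXA peaks were 3861 to 19319 bp apart, with a median of 6101 bp, so none lay within 1 kb of another. Across the lower edge no peak was called for 231 kb, a stretch matched or exceeded by 9.27% of all stretches between neighbouring peaks. On the other side a weak peak (score 3.83) had its midpoint 0.147 kb outside the interval and was not counted.

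HOXB peaks left the HOXB1 end of the interval empty. The first peak began 71266 bp into the interval, and no peak was called over 101 kb across that edge, from a peak on the lower side with a score of 107. Of all stretches between neighbouring peaks, 23.5% were at least as long. From there 8 peaks lay between 46671266 and 46714323. The strongest of them, from 46687671 to 46688310, scored 66.3, and the next, from 46703085 to 46703603, scored 58.0. The peak from 46713809 to 46714323 scored 43.9, and that from 46671266 to 46671618 scored 30.1. The other 4 of the 8 started at 46675114 (score 21.4), 46695902 (27.8), 46696814 (6.02) and 46702513 (13.8). None of the 12 peaks reached the upper 10% of the list (exact interval 0 to 26.5%, which includes the 10% of the list), against 2 of 23 on the sides.

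The stretch beyond, between the main group of HOXB peaks and HOXB13, held 2 weak peaks. One, from 46749040 to 46749267, scored 11.1, and the other, from 46755801 to 46756041, scored 4.32, the lowest of all 43. After a gap of 44770 bp, the longest between 2 members of 1 cluster though matched or exceeded by 44.8% of all stretches, a pair of peaks lay at the HOXB13 end. HOXB13 starts at 46806111 and is transcribed towards lower coordinates. The nearest peak, from 46806372 to 46807023, did not cover the start but began 261 bp upstream of it, was 652 bp wide and scored 19.1, at percentile 44.4 of the list. The other, from 46800812 to 46801384, was 4727 bp downstream of the start and scored 30.1. Its percentile was 56.2. A further peak 4346 bp upstream of the start, with a score of 10.9, lay 0.615 kb outside the interval. In the RefSeq gene order the coding genes PRAC2 and PRAC1 also lie among the HOXB genes. Distances are given to HOXB13 only, and which gene these peaks belong to was not tested.

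HOXC held 3 of the 4 HOX peaks in the upper 10% of the list. That is 18.8% of its 16 peaks (exact interval 4.05 to 45.6%, which includes the 10% of the list). Its sides held 3 such peaks among 37 (8.11%). The strongest of all 43 lay at the HOXC13 end, from 54332093 to 54332742, with a score of 190 and rank 652. The peak from 54372685 to 54373202 scored 133, and that from 54397194 to 54397681 scored 113. Weaker peaks lay between and after them, from 54384050 to 54384535 (score 66.5), from 54427067 to 54427642 (51.2) and from 54357215 to 54357584 (45.4). The peak nearest the other end of the cluster, from 54445718 to 54446205, scored 49.5. The eighth by score, from 54402662 to 54403026, scored 20.9. The widest HOXC peak was 967 bp, from 54348474 to 54349440, with a score of 18.2.

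The remaining 7 HOXC peaks scored from 6.93 to 17.5. In the 60 kb at the end with the low-numbered genes 10 peaks had a median score of 15.8, against 55.9 for the 6 in the 60 kb at the HOXC13 end. The ranges overlapped, from 6.93 to 113 and from 9.71 to 190. Scores did not fall steadily towards the low-numbered end, where the outermost peaks scored 51.2 and 49.5. HOXB and HOXD, split at the middle in the same way, had the opposite order. The median was 19.1 in the HOXB13 part against 27.8, and 12.6 in the HOXD13 part against 81.1, from 1 peak. Of the 16 HOXC peaks, 5 had a neighbour within 1 kb, and 3 of these followed each other between 54410410 and 54411925 with scores of 12.9, 11.3 and 14.2 (a group chosen after its values were seen). The cluster stood between peak-free stretches of 97631 bp on its lower side and 83351 bp on its upper side, lengths reached by 24.3% and 28.2% of all stretches in the list, while between its own peaks the longest was 18075 bp.

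HOXD had 3 peaks near the HOXD13 end and 1 in its middle. The first, from 176953120 to 176953327, scored 10.6, the second, from 176962331 to 176962791, scored 23.6, and the third, from 176976017 to 176976285, scored 12.6. The fourth, from 177005150 to 177005789, was the strongest at 81.1 and ranked 4904 in the list. No peak was called in the last 54211 bp of the interval, on the side of HOXD1, and the peak-free stretch ran on to 128099 bp in all, a length reached by 18.3% of all stretches. The nearest peak outside the HOXD13 end, 5.24 kb from the edge, scored 13.5.

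**Figure D3:**
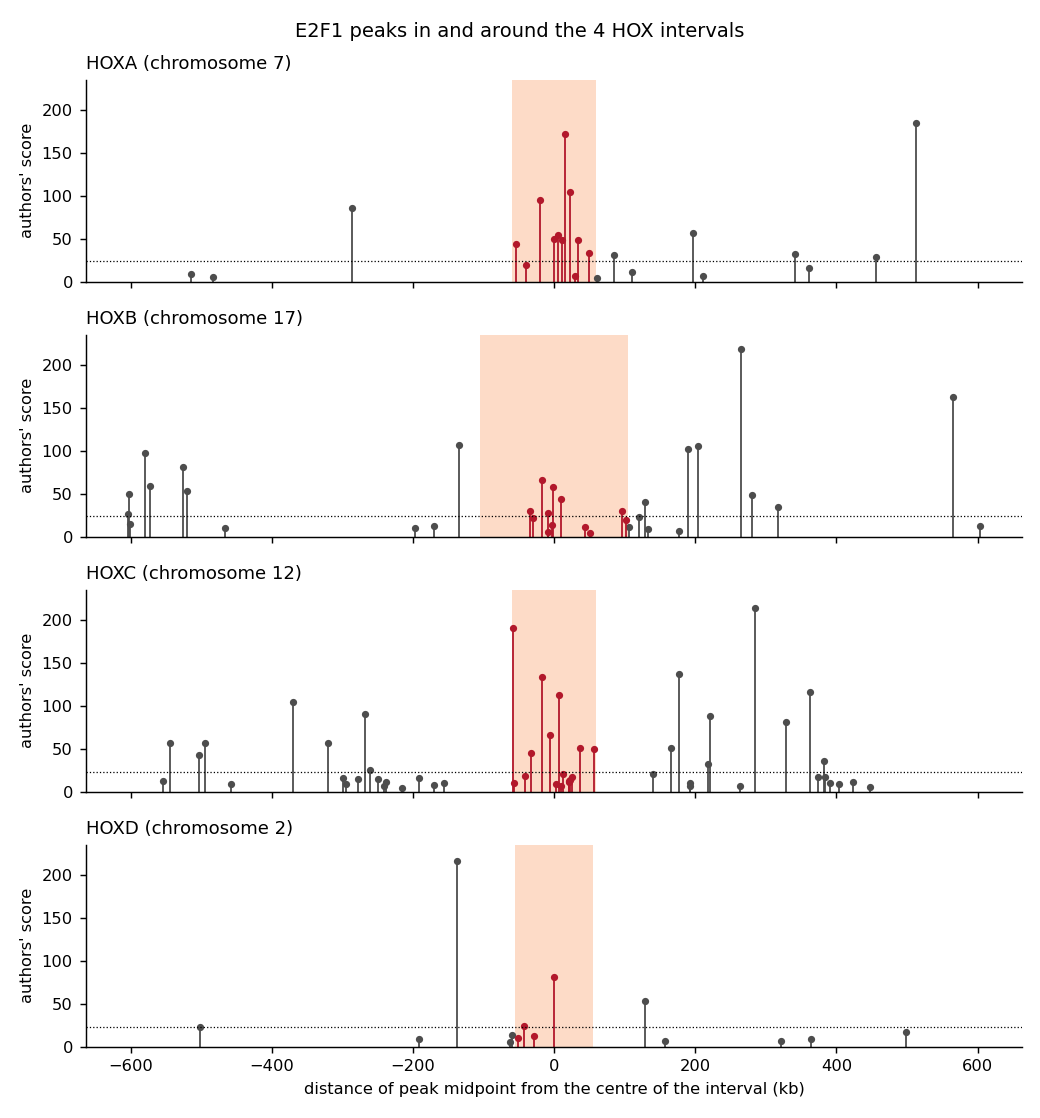
Position of each peak's midpoint relative to the centre of its HOX interval (horizontal axis, kb) and its score (vertical axis, linear), with the interval shaded, members in red, peaks of the sides in grey and the list's median as a dotted line. Red lines are packed in HOXA and HOXC, HOXB is empty over its first 71266 bp, and HOXD has no peak in its last 54211 bp.

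At each of the 4 clusters the highest score within 500 kb belonged to a peak outside the cluster, though the sides were longer and held more peaks than the interval in every case (12 against 11, 23 against 12, 37 against 16 and 10 against 4). The highest score on the sides was 185 at HOXA, 452.5 kb beyond the upper edge, against 172 inside. It was 219 at HOXB, 159.9 kb beyond the upper edge, against 66.3 inside. At HOXC it was 213, 223.9 kb beyond the upper edge, against 190 inside, and at HOXD it was 217, 83.01 kb before the lower edge, against 81.1 inside. On the opposite sides the highest scores were 86.3 at HOXA, 107 at HOXB, 105 at HOXC and 53.5 at HOXD.

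The HOX peaks were of ordinary width. Their median was 488 bp, with quartiles of 319 and 588 bp, against 366.5 bp on the sides and 418 bp over the list. It was 424 bp without HOXA, 515 bp without HOXC and 488 bp without HOXB or HOXD. By cluster the median was 600 bp in HOXA, 447.5 bp in HOXB, 428 bp in HOXC and 365 bp in HOXD. A width of at least 1000 bp was reached by 2 of the 43 peaks, both in HOXA, where the list has 6.82% of such peaks. Because wider peaks score higher throughout the list, each width was also set against the peaks of similar score, in the same of 10 equal bins of the list. Of the 43, 15 (34.9%) were wider than the median of their bin, against 47.6% on the sides and 49.8% over the list. In HOXC 4 of 16 were. The HOXC peak of 967 bp was at percentile 97.8 of its bin, whose median was 366 bp, and the 3 strongest HOXC peaks were at percentiles 27.3, 6.77 and 4.07. In HOXA the peaks of 1251 and 1201 bp were at percentiles 94.97 and 93.6.

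**Figure D4:**
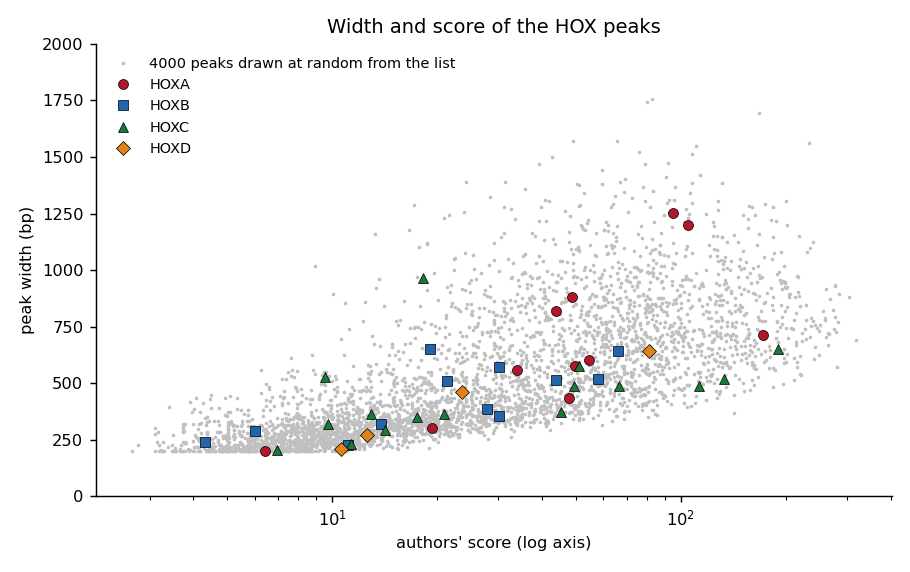
Width in bp (vertical axis, linear) against score (horizontal log axis) for the HOX peaks, by cluster, over 4000 peaks drawn at random from the list (grey). The second and the third HOXC peak by score, 518 and 488 bp wide, lie along the lower border of the cloud, and a pair of HOXA peaks, 1251 and 1201 bp wide, lie near its upper border.

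Close neighbours were about as frequent as in the list. Of the 43 peaks, 9 had another within 1 kb (20.9%, exact interval 10.04 to 36.0%, where the nuclear list has 17.3%), against 7.32% of the 82 peaks on the sides. They were 4 in HOXB and 5 in HOXC. The median distance to the nearest peak was 4425 bp in the clusters, 13710 bp on their sides and 16101 bp over the nuclear list. The list holds no summits, so near peaks may be separate sites or parts of 1 stretch, and this was not tested.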

How the data were processed

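Peaks were deposited by the authors as chromosome, start, end, name and score for 1 E2F1 library. Tools named per the submitters' processing notes are MACS2 2.0.9, Bowtie and CASAVA 1.6.0, and the build is hg19. Not given in the sources used here are their settings, the peak threshold and any use of the input. The deposited score has no stated scale. Starts were read as 0-based and are printed 1-based.

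The intervals and the descriptions were chosen with earlier results of these data known. Sites were named by rule, which was every peak of a cluster with up to 15 members, otherwise the 8 highest and 3 widest, the peaks at the edges, the peak nearest the HOXB13 start and the highest on each side. Others are marked, and 1 site that the rule names is not reported here. Densities have exact Poisson intervals, shares and density ratios Clopper-Pearson intervals, and medians order-statistic intervals, all at 95%. With 4 peaks, as in HOXD, the interval of the median is only the range and falls short of 95%. The counting of peaks and the interval of the density ratio were tested on simulated data, the latter with independent counts. Windows were tiled from base 1 of each chromosome. Python 3.11.15, pandas 2.3.3, numpy 2.4.6, scipy 1.17.1 and matplotlib 3.10.9 were used. Alternatives covered membership, the size of the sides, score thresholds, leaving out a cluster, the windows counted and the motif. The input was not analysed here.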

Additional observations from a re-analysis of the deposited data

How the results depend on the processing

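Of 77 alternative values, 68 stayed within the interval of the main value and 9 moved out of it. The 68 include the median scores and widths of the clusters with sides of 250 kb and 1 Mb. These could not move, because the sides do not enter them. Among the density ratios, 0 fell on the other side of a ratio of 1. The density ratio of the 4 clusters to their sides, 3.75, ran from 3.12 without HOXA to 4.63 in the upper 50% of the list by score. Restriction by score raises the median score by construction. In the upper 50% the median score of the HOX peaks was 50.4 and the median width 565.5 bp, and in the upper 10%, with 4 peaks, 152.6 and 584 bp. In the upper 10% the ratio was 8.33 both for HOXC, from 3 peaks (1.12 to 62.2), and for HOXA, from 1 peak (0.106 to 654), while HOXB and HOXD had no peak there and gave no value. Counting only windows with a peak, the share of windows that reached the count of the cluster was 0.478% for HOXA, 1.78% for HOXB and 16.1% for HOXD. The 5-letter motif cores were found in 80.8% of HOX stretches, since shorter motifs occur more often. With 1 library, no replicate could be left out. No paired analysis was possible because the peaks come from a single library. Read depth is unknown, so what it limits cannot be given.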
